A study of Homo sapiens with 6 samples.

Results

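The interferon-stimulated antiviral effector genes are 47 genes taken by name, from the oligoadenylate synthetases and the IFIT, IFITM and MX families to the ISG15 system, and all 47 were found among the 31999 genes of the deposited table. They were measured by RNA-seq in HEL, a line of human erythroleukemia cells, in which every library came from cells that carried a lentiviral hairpin vector and were selected with puromycin. The shCtrl group (3 libraries) had a hairpin without a target, and the shTMIGD2 group (3 libraries) had a hairpin against TMIGD2, an immunoglobulin-family receptor of the cell surface, and the labels do not say which of the study's hairpins it was. The libraries were stranded and made from poly(A) RNA, and the labels call those of a group biological replicates. The table gives each gene 1 mean level over the 6 libraries, as log2 CPM (counts of a gene scaled to a common library total), computed by the authors. A mean level belongs to both hairpins together: a gene that is high in one group and low in the other can have the same mean as a gene that is level in both, and the comparison of the hairpins was not analysed here. There are no values per library, so no value below has a replicate error, no test was run, and the depth of the libraries is unknown.

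Interferons of type I and type III are secreted by cells that sense foreign nucleic acid. Their receptors activate the kinases JAK1 and TYK2, which phosphorylate STAT2, and a complex that holds STAT2 and IRF9 then binds a promoter motif called the interferon-stimulated response element. The genes switched on in this way act at each step of viral growth: they hold back entry at membranes, bind or degrade viral RNA, tag proteins with ISG15, alter nucleotide pools and keep new particles on the cell surface. Many of them are also held at a standing level in uninfected cells.

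Promoter sequence was not used to choose the genes. Yet they were taken as interferon-stimulated, and the response element takes part in that induction. A high share of matches could therefore follow from the choice of the genes, and it is given as a description only. In a window of the promoter from 250 bases before to 50 bases after each transcription start, the core of the response element was searched on both strands as a pair of GAAA half-sites separated by 2 bases. Of the 38 members with such a window in the RefSeq promoter table (GRCh38.p14), 28 (73.7%) held at least 1 match, against 4.38% of the 27305 genes with a window. The highest member of each role that held a match is shown here for 10 roles, from the first to the last match with 15 bases on each side, in the direction of transcription and with the matches in capitals. A match on the other strand reads as TTTC, 2 bases and TTTC.
PARP14, chr3:122680795-122680834, plus strand: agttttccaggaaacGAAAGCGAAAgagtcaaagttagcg
OAS3, chr12:112938316-112938486, plus strand: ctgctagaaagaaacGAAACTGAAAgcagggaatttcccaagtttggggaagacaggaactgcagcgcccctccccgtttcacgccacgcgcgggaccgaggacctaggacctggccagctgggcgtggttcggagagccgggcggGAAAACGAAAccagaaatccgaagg
PLSCR1, chr3:146544662-146544701, minus strand: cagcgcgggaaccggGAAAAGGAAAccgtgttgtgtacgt
IFI6, chr1:27672261-27672363, minus strand: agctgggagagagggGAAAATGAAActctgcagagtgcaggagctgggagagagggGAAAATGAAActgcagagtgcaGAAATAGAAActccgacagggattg
SAMD9, chr7:93118091-93118130, minus strand: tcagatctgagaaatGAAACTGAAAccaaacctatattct
IFIT3, chr10:89327826-89327899, plus strand: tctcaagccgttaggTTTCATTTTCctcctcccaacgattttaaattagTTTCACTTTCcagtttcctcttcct
TRIM5, chr11:5685077-5685116, minus strand: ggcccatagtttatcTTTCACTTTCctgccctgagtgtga
HERC5, chr4:88456979-88457069, plus strand: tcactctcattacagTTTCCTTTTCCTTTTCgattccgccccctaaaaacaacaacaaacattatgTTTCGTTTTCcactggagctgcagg
IFITM3, chr11:320871-320927, minus strand: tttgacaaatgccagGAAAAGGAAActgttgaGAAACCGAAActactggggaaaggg
MX1, chr21:41420554-41420593, plus strand: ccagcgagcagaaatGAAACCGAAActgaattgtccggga
OAS3 and IFI6 held their matches apart from each other, while those of HERC5 included a pair that overlapped by a half-site. PARP9 and DTX3L, which are transcribed away from each other and encode partners in 1 complex, held the same match, seen from either strand, in the stretch chr3:122564317-122564356. The 9 members without a window in the table, LY6E, IFITM2, UBA7, MX2, TRIM22, USP18, IFIT2, OAS2 and OASL, were not searched.

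**Figure D1:**
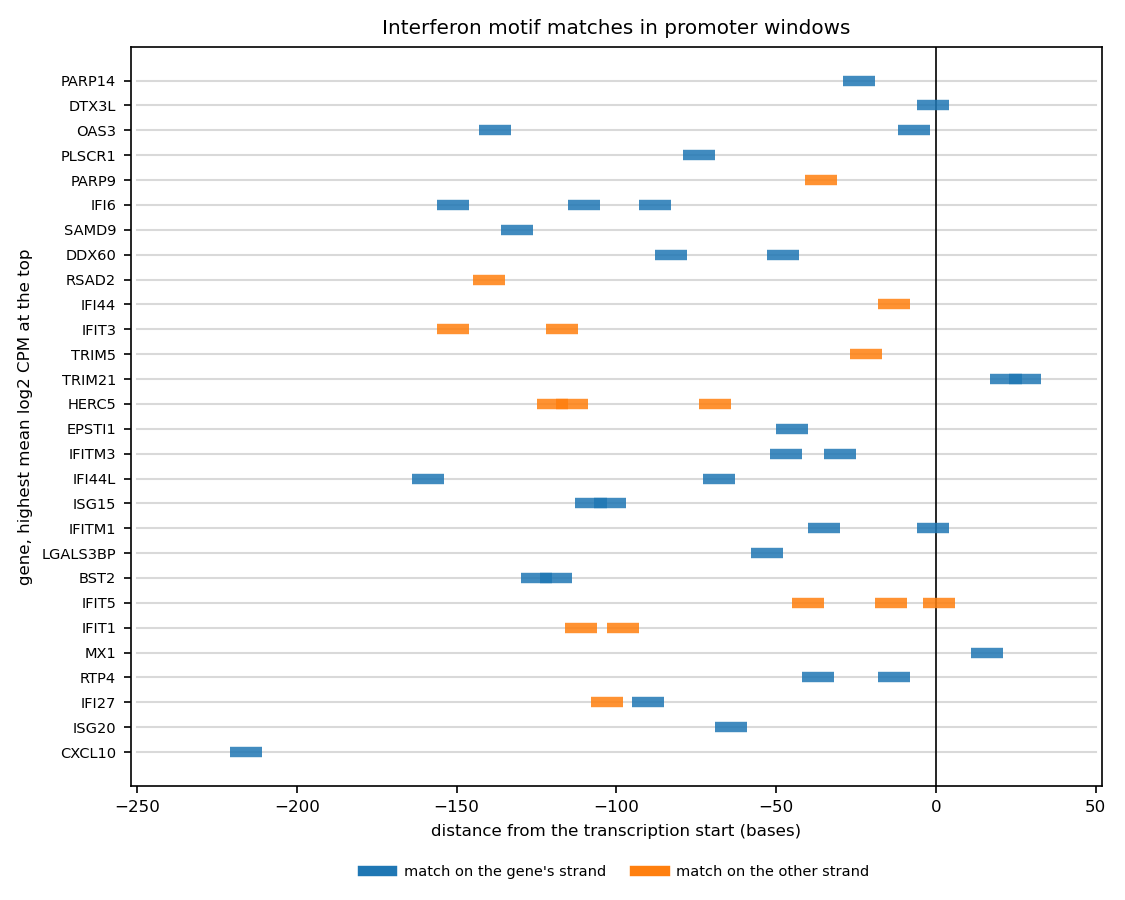
Position of each match of the interferon motif (bars) in the window of the 28 genes that held one, in bases from the transcription start (vertical line), with genes ordered by mean log2 CPM. Of the 46 matches, 40 lay wholly before the start and 22 of these within 100 bases of it.

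Across the 28 promoters there were 46 matches, 31 on the strand of the gene. They were counted in 1 window a gene, and the match that PARP9 and DTX3L share was counted for each of them. The farthest began at base -221 from the start, in CXCL10, a chemokine that draws T cells. IFIT5, IFI6 and HERC5 had 3 matches each, and 15 members had more than 1. In 6 matches the motif crossed or followed the start, as in TRIM21 and in the MX1 window shown, where it covered bases 12 to 21 of the transcribed sequence. MX1 had 3 windows, for different starts, and another of them held a match before its start. The motif extended by CT at its end was found in 17 members (44.7%), against 0.322% of all genes with a window. The gamma-activated site, another promoter motif of the interferon response, was searched on both strands as TTC, any 3 bases and GAA. It was found in 10 members (26.3%), against 9.38% of all genes with a window, and 8 of the 10 also held the GAAA pair. The members' windows had a median GC content of 53.7%, against 58.7% for all genes with a window. The part of base content in the shares of either motif was not tested. These matches are letters in a sequence and were not tested for binding.

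Levels of members with and without a match overlapped, and the difference was not tested. The 9 members without a window are left out of the medians below. Members with a match had a median of 4.52 log2 CPM (lowest -2.87, highest 6.41), and the 10 members with a window and no match had a median of 4.36 (lowest -1.64, highest 7.43). Those 10 were IFI16, UBE2L6, STAT2, CMPK2, IFI35, SAMD9L, HERC6, OAS1, XAF1 and IFI30. A response element with other bases or spacing, or outside the window, would have been missed, so these genes may still hold one. Of the 10 highest members by CPM per kilobase, 7 had a window and 4 a match, and of the 10 lowest, 8 had a window and 6 a match.

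Most of the effector genes were present at a moderate mean level over both hairpins. The study reports the interferon alpha response as raised upon TMIGD2 knockdown in HEL cells. How far this enters the pooled levels was not tested, so they are not the levels of unmodified HEL cells. Of the 47 members, 44 were found at a mean log2 CPM of 0 or more, that is 1 CPM. The share was 43.8% of all genes listed, and 68.9% of those with a protein in the reference, as all 47 members have. The members under 0 were OASL (-0.22), IFI30 (-1.64) and CXCL10 (-2.87). The lowest value in the table was -3.764, with 2601 genes within 0.1 of it. Of the members, 22 lay above the median of all genes at or above 0, which was 4.55 log2 CPM. The median of the members was 4.38 log2 CPM, against -0.97 for all genes listed and 3.62 for the 16660 protein-coding genes matched to the annotation. The members together made up 0.201% of all CPM, and the 5 highest of them, LY6E, IFI16, UBE2L6, IFITM2 and UBA7, made up 43.1% of the members' sum.

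**Figure D2:**
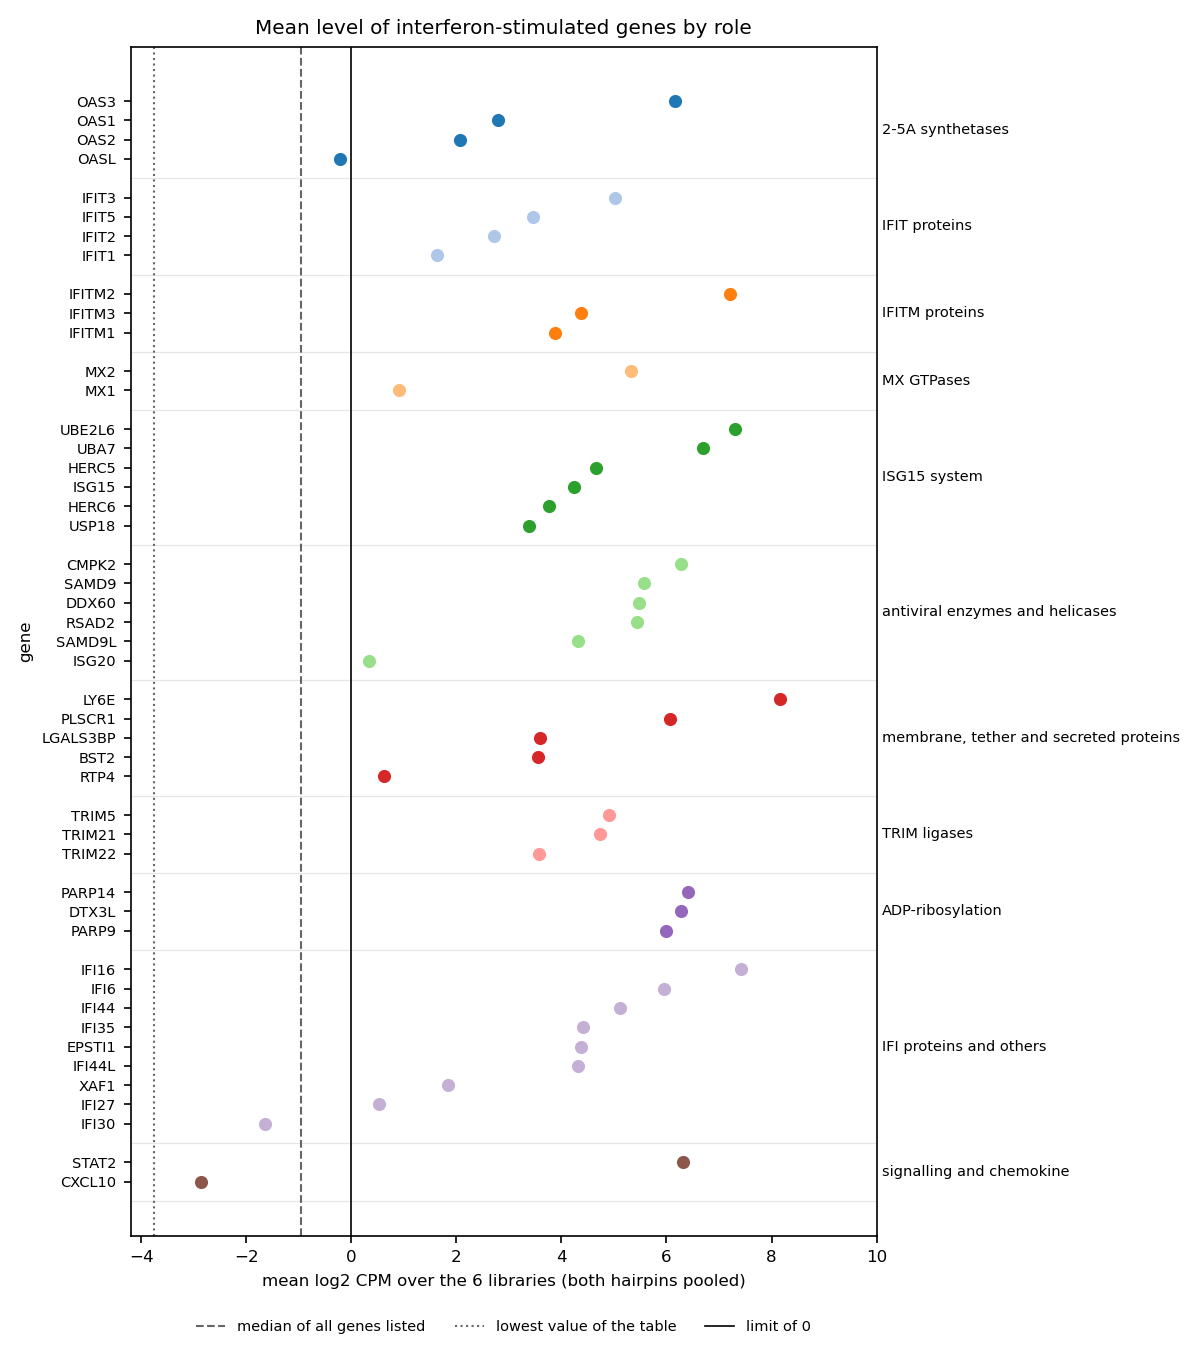
Mean log2 CPM over the 6 libraries (horizontal axis) for each of the 47 genes, 1 point a gene, grouped by role, with lines at the median of all genes listed, the lowest value of the table and 0. The points run from CXCL10 at -2.87 to LY6E at 8.16, and 44 of them lie at or above 0.

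A longer transcript gives more fragments, so levels were compared between genes as CPM per kilobase of the longest annotated transcript (GENCODE 44). On this scale LY6E, a lipid-anchored surface protein, was highest at 202 CPM per kilobase, followed by IFITM2 at 147 and UBE2L6 at 101. CXCL10 was lowest at 0.117. The median member was at 7.38 CPM per kilobase, against 3.07 for protein-coding genes, and 32 of the 47 members lay above that gene median. The choice of transcript moved the value by over 1.5 times in 10 members when the canonical transcript was taken, and most in OAS1, from 0.918 to 4.25.

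**Figure D3:**
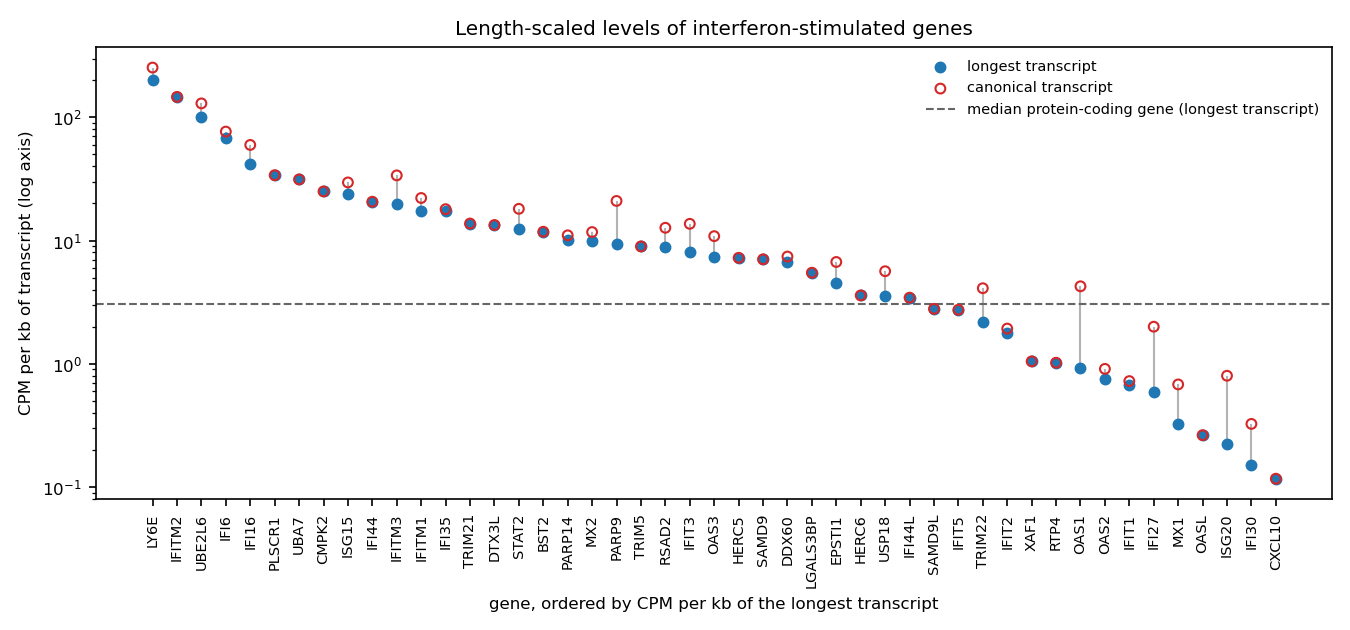
CPM per kilobase (log axis) for each of the 47 genes, ordered by the value on the longest transcript (filled points), with the value on the canonical transcript (open points) and the median protein-coding gene (dashed line). The values fall from 202 for LY6E to 0.117 for CXCL10, and 32 filled points lie above the dashed line.

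In the oligoadenylate synthetase, IFIT and MX families, OAS3, IFIT3 and MX2 had the highest levels. The oligoadenylate synthetases make a second messenger that activates the nuclease RNase L, apart from OASL, which lacks that activity. OAS3 was at 6.16 log2 CPM, OAS1 at 2.79, OAS2 at 2.07 and OASL at -0.22. Per kilobase OAS3 was 8.04-fold above OAS1 and 9.87-fold above OAS2, its neighbours on chromosome 12, and with the canonical transcripts the folds were 2.55 and 11.95. Some of the IFIT proteins bind RNA ends that lack the marks of a host cap. IFIT3 was at 5.03 log2 CPM, IFIT5 at 3.47, IFIT2 at 2.71 and IFIT1 at 1.64, and per kilobase IFIT3 was 12.1-fold above IFIT1, which lies next to it on chromosome 10. Its lead over IFIT5 was 2.98-fold, and between 1.23-fold and 4.98-fold with the other length choices. Of the MX GTPases, which trap viral nucleoprotein or capsids, MX2 was at 5.32 and MX1 at 0.91 log2 CPM. MX2 was 30.1-fold above MX1 per kilobase of the longest transcript and 17.25-fold with the canonical one.

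The IFITM proteins, which hinder fusion of viral and cell membranes, lie side by side on chromosome 11. IFITM2 was at 7.20, IFITM3 at 4.37 and IFITM1 at 3.89 log2 CPM, so that IFITM2 was 7.41-fold above IFITM3 and 8.37-fold above IFITM1 per kilobase. With the canonical transcripts the folds were 4.34 and 6.62, and with median transcript lengths 5.61 and 11.9. Some of their sequence is shared: 55.1% of the 50-base stretches in the canonical IFITM1 transcript also occurred in transcripts of other genes. The share was 20.8% for IFITM3 and 12.0% for IFITM2. The gene that shared most with IFITM1 (50.7%) and with IFITM2 (7.21%) was ENSG00000288681, a gene model that overlaps their exons on the same strand. For IFITM3 it was IFITM1 (17.4%). How the authors' counting placed such reads was not tested, and the values of the IFITM genes are uncertain to that extent.

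The ISG15 system attaches ISG15, a small protein like ubiquitin, to other proteins. UBE2L6, the conjugating enzyme, was at 7.30 log2 CPM and UBA7, the activating enzyme, at 6.69, both above ISG15 itself at 4.24. Per kilobase UBE2L6 was 4.2-fold above ISG15, and 9.04-fold with coding lengths. UBA7 and ISG15 were nearly level per kilobase (1.31-fold with the longest transcripts, 1.06-fold with the canonical ones and 0.895-fold with coding lengths), but 5.51-fold apart with median transcript lengths. HERC5, the main ligase, was at 4.67 log2 CPM, HERC6, its relative on chromosome 4, at 3.76, and USP18, which removes ISG15 and restrains the interferon receptor, at 3.39. HERC5 was 2.02-fold above HERC6 per kilobase and 0.591-fold with median transcript lengths, so their order turned with the length. Of the 50-base stretches in the USP18 transcript 52.9% also occurred in other genes, 26.4% in USP41, so its value is uncertain.

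Of the other antiviral enzymes, CMPK2, a mitochondrial nucleotide kinase, was at 6.27 log2 CPM and RSAD2 (viperin), which makes a chain-ending nucleotide, at 5.43. They are neighbours on chromosome 2, transcribed in opposite directions, and CMPK2 was 2.81-fold above RSAD2 per kilobase, and between 1.44-fold with coding lengths and 4.40-fold with median transcript lengths. SAMD9 was at 5.58 and its neighbour SAMD9L at 4.32 log2 CPM, both being restriction factors of poxviruses, and DDX60, a helicase, was at 5.48. ISG20, an exonuclease, was far lower at 0.34 log2 CPM. The ADP-ribosylation group lay within a narrow range, with PARP14 at 6.41, DTX3L at 6.27 and PARP9 at 5.995 log2 CPM. Their order per kilobase was DTX3L, PARP14, PARP9 with the longest transcripts (13.4, 10.0 and 9.43 CPM per kilobase) and PARP9, DTX3L, PARP14 with the canonical ones (20.95, 13.4 and 11.02).

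The membrane and secreted proteins made up 18.8% of the members' summed CPM, the largest share among the 11 roles, and LY6E alone 14.2%. LY6E was at 8.16 log2 CPM, PLSCR1, a phospholipid scramblase, at 6.07, LGALS3BP, a secreted binding partner of galectin, at 3.59, BST2 (tetherin), which holds budding virus at the surface, at 3.56, and RTP4, a chaperone of receptors, at 0.61. The TRIM ligases TRIM5, which binds retroviral capsids, TRIM21, an antibody receptor of the cytosol, and TRIM22 were at 4.91, 4.73 and 3.57 log2 CPM. Per kilobase TRIM21 was 6.26-fold above TRIM22 with the longest transcripts and 3.35-fold with the canonical ones.

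The genes named IFI for their induction encode proteins of several kinds. IFI16, a sensor of DNA, was highest at 7.43 log2 CPM, followed by IFI6, a small membrane protein, at 5.96 and IFI44 at 5.12. IFI35, EPSTI1 and IFI44L lay close together at 4.41, 4.38 and 4.32 log2 CPM. Per kilobase IFI44 was 6.01-fold above IFI44L, its neighbour on chromosome 1, whose longest transcript has 5829 bases against 1682, and 1.77-fold above it with coding lengths. XAF1, which promotes apoptosis, was at 1.84, IFI27, a mitochondrial protein, at 0.53 and IFI30, a lysosomal thiol reductase, at -1.64 log2 CPM. The value of IFI30 is uncertain, since 100% of the 50-base stretches in its canonical transcript also lay in a transcript of a gene model on the same strand (ENSG00000268173), and the part of this in the value was not tested.

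In all, 24 of the 47 members lay within 100 kilobases of another member. They formed 14 neighbouring pairs, each of 2 members that follow one another in order of position. The difference in mean log2 CPM between neighbours, not scaled by length, ran from 0.27 for PARP9 and DTX3L to 4.40 for MX2 and MX1, and 5 of the 14 pairs lay within 1 log2 unit of each other: PARP9 and DTX3L, IFITM1 and IFITM3, IFI44L and IFI44, CMPK2 and RSAD2, and HERC6 and HERC5. Pairs with another member between them, such as OAS1 and OAS2, were not counted here even where they lay within 100 kilobases.

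Levels of the genes upstream of the effectors differed by list. Of 21 interferon genes looked for, 3 were listed and none reached 0 log2 CPM: IFNL3 was at -0.16, while IFNL2 and IFNK were both at -3.57, near the lowest value of the table. These 3 were named after their values were seen. Of the 6 receptor genes, IFNAR1 was at 7.25 log2 CPM, IFNGR1 at 5.36, IFNGR2 at 4.11, IFNAR2 at 2.41, IL10RB at 0.16, and IFNLR1, the specific chain for type III interferons, at -3.57. Of the 9 kinases and factors, 8 reached 0, among them JAK2 (8.62), JAK1 (8.54) and TYK2 (7.46), and STAT2, the effector list's own factor, was at 6.32. IRF9, named after its value was seen, was at -0.07 log2 CPM. All 4 feedback inhibitors reached 0, with SOCS3 at 6.43, PIAS1 at 6.11, PTPN2 at 5.14 and SOCS1 at 2.28. Of the 12 sensors and effectors of nucleic acid, 11 were listed and 10 reached 0, the exception being TLR7 at -3.66, named after its value was seen, and the 4 highest were ADAR (8.65), EIF2AK2 (6.91), MAVS (6.62) and STING1 (5.99).

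**Figure D4:**
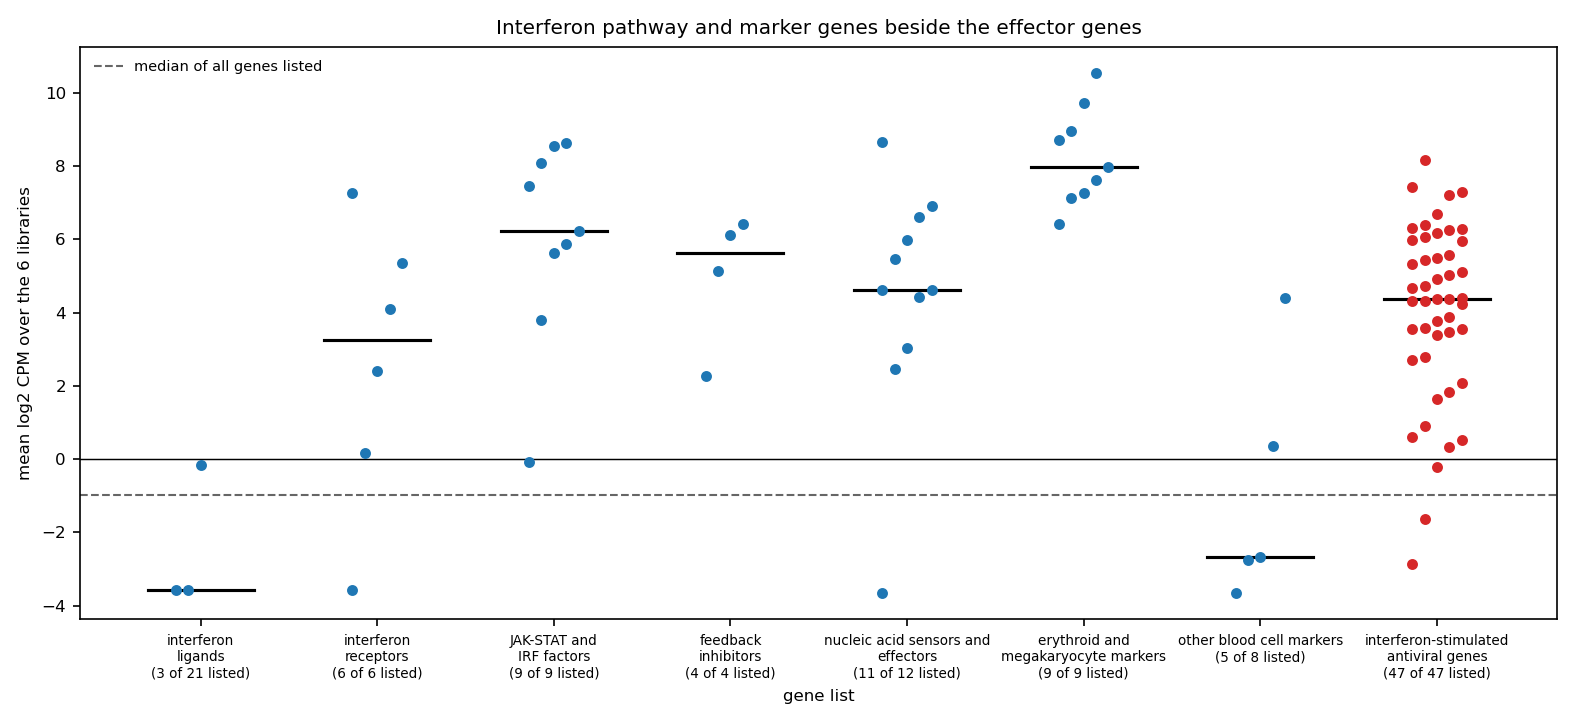
Mean log2 CPM over the 6 libraries (vertical axis) for the genes listed in each pathway or marker list, 1 point a gene, with the median of each list (black bar), the median of all genes (dashed) and a line at 0. The 3 interferon genes listed lie under 0, and 44 of the 47 effector genes lie at or above it.

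The label of the cells was checked against markers. All 9 erythroid and megakaryocyte markers were above 0, with ITGA2B at 10.54 log2 CPM, HBG1 at 9.72, NFE2 at 8.96 and TAL1 at 8.72. Of 8 markers of other blood cells, 5 were listed and 2 reached 0, LYZ at 4.40 and NKG7 at 0.35, while CD14 was at -2.67. TMIGD2, the targeted gene, had a mean of 4.08 log2 CPM over both hairpins, a value that cannot check the knockdown.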

How the data were processed

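Poly(A) RNA of HEL cells was sequenced in 6 libraries, grouped by their labels (shCtrl and shTMIGD2, 3 each). According to the study's methods and the submitters' processing notes, the authors aligned reads to hg38 with STAR (2.6.1b) and counted fragments per gene with HTSeq (0.6.1) on a refSeq annotation. The deposited table holds, per gene, a mean log2 CPM that the authors computed over all libraries with edgeR, which adds a small prior count. The methods name DESeq2, run on genes whose reads averaged 1 or more in shCtrl or in shTMIGD2, while the table's columns are those of edgeR, and whether that filter was applied to the table, and how it was normalized, is not given in the sources used here. Its other 4 columns, the authors' own comparison (fold change, F statistic, p-value, adjusted p-value), were not used, and no value per library was at hand, so the planned count test of shTMIGD2 against shCtrl and its alternatives were not run. The members and lists were chosen with earlier results of these data known.

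Lengths, positions and shared exons come from GENCODE 44 (GRCh38), where 22805 genes were found under their own symbol and 578 under an earlier one, and promoters from RefSeq (35116 windows). The annotation differs from the one the authors counted on. A gene with several windows counted as holding a motif where any window did, and the window with the most matches gave positions. Stretches of 50 bases in the members' canonical transcripts were compared with GENCODE transcripts of other genes. All members were named, and the other lists by a rule on level. The levels of some genes of those lists are not reported here. The code (Python 3.11.15, pandas 2.3.3) was tested on simulated sequences and levels.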

Additional observations from a re-analysis of the deposited data

How the results depend on the processing

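No paired analysis was possible because the table has no values per library. For the same reason DESeq2, other size factors, no filter on counts and leaving out each library were not run. With limits of 1 and -1 log2 CPM, 40 and 45 members were found in place of 44, while the share of all genes moved from 43.8% to 38.9% and 50.3%, and to 68.9% at 0 among genes with a protein in the reference. Among those genes the members' median percentile by level was 57.5 in place of 77.1 among all genes listed. Subtracting the lowest value left the median level at 4.37 log2 CPM. The members' median percentile per kilobase among protein-coding genes was 61.2 with coding lengths, 57.2 with median transcript lengths and 64.5 with canonical transcripts, the last chosen after seeing the data, and between 8 and 9 of the 10 highest members stayed the same. The motif extended by CT left 17 members and 0.322% of genes, and matches before the start alone left 26 members and 3.71%. Counted over single windows, a choice made after seeing the data, 33 of 51 member windows (64.7%) held the motif, against 3.57% of all windows. The prior count in the values limits what can be said of OASL, IFI30 and CXCL10.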

Other observations

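IFI44L stood out among the members for a repeat in its promoter window. A stretch of 85 bases occurred there more than once on the same strand, longer than in 99.8% of all windows, where the median was 9 bases, and each copy held a match of the interferon motif (first bases at -164 and -73 from the start). The next longest repeats among the members were 29 bases in IFI6 and 22 bases in IFIT5, whose windows held 3 matches each. IFI44L was named here after its window had been seen.

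Some genes named above have exons that overlap another gene model on the same strand in GENCODE 44, at low and at high levels alike. The share of exon bases shared in this way was 23.9% for IRF9, 21.6% for IL10RB, 14.9% for HBG1 and 14.7% for IFNAR2. Among the members it was 42.5% for IFI30, 23.1% for IFI6 (5.96 log2 CPM), 21.1% for IFITM1 (3.89) and 12.1% for IFIT2 (2.71). RIGI, at 4.62 log2 CPM, had 43.2%. The low genes IFNLR1, TLR7, IFNK, IFNL2, IFNL3, CXCL10 and OASL had 0%. This share covers overlap in position only, not likeness to genes elsewhere. How reads over shared exons were counted is not given in the sources used here, and the part of the overlap in these values was not tested.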
